A study of Mus musculus with 5 samples.

Results

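Hif1a, Slc2a1, Pfkp and Aldoa, 4 genes that together describe the oxygen-regulated transcription factor HIF-1 and the entry and breakdown of glucose, were followed on 5 two-colour expression arrays of macrophages exposed to lipopolysaccharide (LPS). The members were the 12 probes that the annotation of the array assigned to these genes: 6 for Hif1a, 1 for Slc2a1, 2 for Pfkp and 3 for Aldoa. In all, 8692 genes were measured by 13876 named probes with a value on all 5 arrays, all 12 member probes among them. The macrophages were grown from the marrow of BalbC mice with human CSF-1, which drives the macrophage lineage, and 1 array was run for each culture: 0 h, which had no LPS, and 0.5, 2, 7 and 21 h in LPS of S. minnesota at 10 ug/ml. Every array compared macrophage RNA with RNA of whole C57BL6/J embryos of day 17.5, so the common reference was another strain and a whole animal. All 5 cultures shared the strain and the CSF-1, no culture without LPS at a later time is analysed here, and time in culture and LPS therefore cannot be told apart. With 1 array per time there was no replicate, and no p-value is given.

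HIF-1 is a pair of proteins, the oxygen-regulated HIF-1 alpha subunit encoded by Hif1a and its constant partner ARNT. In oxygen the alpha subunit is hydroxylated, bound by the VHL ubiquitin ligase and degraded, so its protein can accumulate without more mRNA. In macrophages LPS is known to raise Hif1a transcription through NF-kappaB, and HIF-1 binds short hypoxia-response elements near genes of glucose metabolism. Slc2a1 encodes the glucose transporter GLUT1, Pfkp the platelet-type phosphofructokinase that commits sugar to glycolysis, and Aldoa the aldolase that splits the resulting sugar bisphosphate into triose phosphates.

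The bases before the annotated transcription starts of the 4 genes are shown because HIF-1 acts through such sequences. They come from RefSeq (build GRCm38.p6), run 5′ to 3′ on the strand of the gene and end at the base before the start. Capitals mark the core of the hypoxia-response element, ACGTG or GCGTG, on either strand (CACGT or CACGC where it lies on the opposite strand). Windows of 250 bases are given for Hif1a (chr12:73907617-73907866, plus strand), Slc2a1 (chr4:119108495-119108744, plus strand), Pfkp (chr13:6648772-6649021, minus strand) and the outermost of 3 Aldoa starts (chr7:126800448-126800697, minus strand). For an inner Aldoa start only 30 bases around the match are given (chr7:126799363-126799392, minus strand).
Hif1a: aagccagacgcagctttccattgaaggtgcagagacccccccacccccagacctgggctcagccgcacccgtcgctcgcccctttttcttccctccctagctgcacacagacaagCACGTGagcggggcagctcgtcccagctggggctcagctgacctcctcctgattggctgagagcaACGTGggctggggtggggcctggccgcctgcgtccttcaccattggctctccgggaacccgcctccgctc
Slc2a1: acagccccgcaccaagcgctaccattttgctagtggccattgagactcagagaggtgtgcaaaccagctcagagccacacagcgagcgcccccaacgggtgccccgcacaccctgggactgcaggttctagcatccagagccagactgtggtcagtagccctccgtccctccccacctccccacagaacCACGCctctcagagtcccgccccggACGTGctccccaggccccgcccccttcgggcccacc
Pfkp: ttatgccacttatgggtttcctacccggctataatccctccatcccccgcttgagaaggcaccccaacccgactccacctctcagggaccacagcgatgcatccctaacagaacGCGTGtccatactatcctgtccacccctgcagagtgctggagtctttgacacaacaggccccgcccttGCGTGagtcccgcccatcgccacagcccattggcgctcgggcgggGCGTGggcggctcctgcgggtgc
Aldoa, outermost start: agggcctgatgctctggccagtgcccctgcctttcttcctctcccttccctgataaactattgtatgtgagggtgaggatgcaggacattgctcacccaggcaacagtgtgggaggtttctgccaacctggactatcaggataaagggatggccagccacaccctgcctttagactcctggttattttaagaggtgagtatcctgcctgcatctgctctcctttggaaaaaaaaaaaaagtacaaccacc
Aldoa, inner start: tgtggctcgagtCACGTcctagcggggcgg

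The Hif1a window held the core 134 and 70 bases before the start, and the first of these, CACGTG, reads the same on both strands and so counts as 2 overlapping matches. Slc2a1 had ACGTG 36 bases before the start and CACGC at 61. In the Pfkp window GCGTG stood at 136, 68 and 23. Aldoa had no match before its outermost start, and 1 before each of the inner starts, which is the same site at 126 and 202 bases. Such a short motif is common: 38.6% of 32851 windows of this length and 41.5% of 27025 genes had at least 1 match. Of the 18 measured glycolytic enzyme genes, 13 had one at any start. A match describes letters and not binding, which was not measured here.

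The values are log ratios of the 2 channels, and neither the base of the logarithm nor the direction of the ratio is given in the sources used here. Differences are given in the unit of the files, with no fold change, and each array was centred on its median before arrays were compared. Positive values were read as more RNA in macrophages than in the embryo, which the markers named next make likely without settling it. With the opposite orientation every sign in the text would turn. Of 20 macrophage genes listed, 10 were measured, with medians of 0.05 to 0.63 units per array. Only 5, 5, 7, 7 and 8 of these 10 were above 0 at 0, 0.5, 2, 7 and 21 h. Lyz2, Fcgr1 and Ctss were between 1.07 and 3.46 on every array, while Cd68 and Tyrobp were below 0 on each, and Csf1r, Itgam and Cd14 were not among the measured genes. Medians were negative on every array for genes of fetal liver (9 measured, -0.68 to -0.48), stroma (12, -0.45 to -0.30), red cells (10, -0.47 to -0.16) and neutrophils (7, -0.24 to -0.12). They lay near 0 for lymphocytes (5, -0.04 to 0.08) and dendritic cells (2, -0.11 to 0.10). Error was estimated from how far probes of the same gene differ, over 3034 genes with more than 1 probe. Expressed as an SD of the change from 0 h it was 0.27, 0.38, 0.23 and 0.23 units at 0.5, 2, 7 and 21 h, and a change past 2 such SDs (0.545, 0.753, 0.462 and 0.467 units) is called higher or lower here. This covers spots and probes, not cultures or animals. The spread is that of single probes, and the same thresholds were used for means over several probes. At 0.5 h 1.85% of the genes with more than 1 probe were called higher, against 4.30% of all genes.

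Counted singly, 1, 3, 4 and 6 of the 12 member probes were called higher at 0.5, 2, 7 and 21 h, and none was called lower at any time. Pfkp probe 4244 at 21 h, at -0.464 units, was just short of the lower threshold. Among all 13876 named probes 4.25%, 5.2%, 4.08% and 5.53% were called higher at these times, and 0.62%, 0.461%, 3.61% and 2.76% lower. The called probes were of Pfkp at 0.5 h, of Pfkp and Hif1a at 2 h, of Hif1a at 7 h, and of Hif1a and Slc2a1 at 21 h. The probes of 1 gene share its transcript, so these counts are not of independent measurements.

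**Figure D1:**
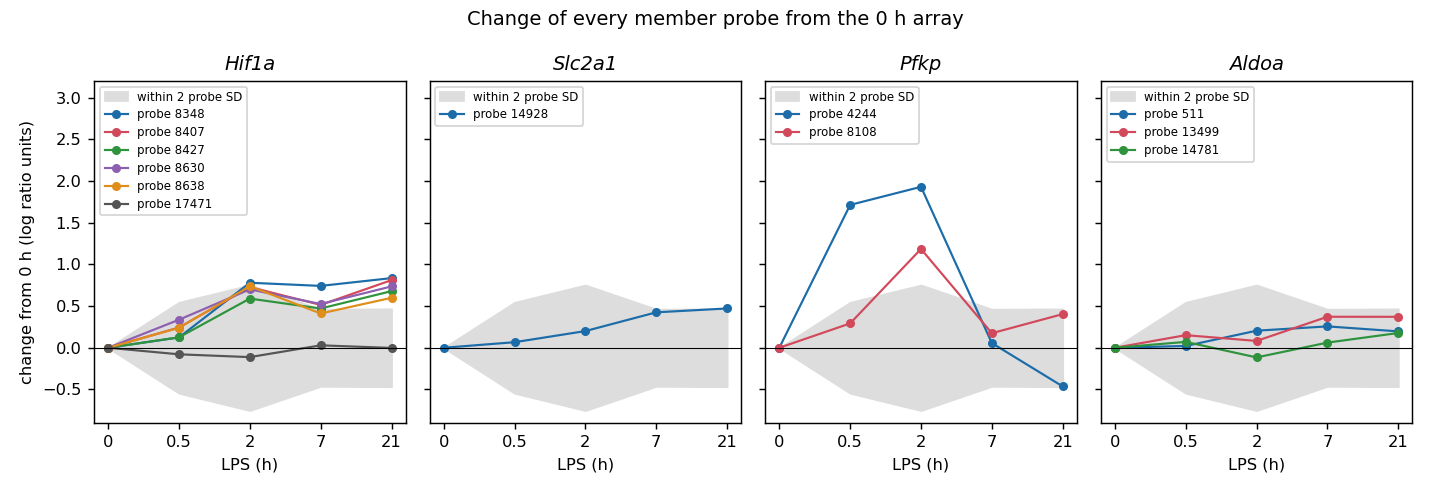
Change of each probe from the 0 h array (vertical axis, log ratio units) against hours of LPS (horizontal axis, times evenly spaced), 1 panel per gene and 1 line per probe; the grey band is 2 probe SDs. The 5 lines of Hif1a probes 8348 to 8638 run together to between 0.60 and 0.84 units at 21 h and the line of probe 17471 stays near 0, while both Pfkp lines peak at 2 h.

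Hif1a was above its 0 h value on every later array by 5 of its 6 probes. Probe 8348 had centred log ratios of 0.19, 0.31, 0.97, 0.93 and 1.02 at 0, 0.5, 2, 7 and 21 h. Probe 8407 had 0.04, 0.28, 0.77, 0.55 and 0.85 in the same order, and probe 8427 had 0.14, 0.26, 0.73, 0.61 and 0.82. All of these probes had their low values at 0 and 0.5 h. Probe 8630 read 0.06, 0.40, 0.76, 0.59 and 0.80, and probe 8638 read 0.07, 0.31, 0.81, 0.48 and 0.67. In these 5 probes the 3 later arrays lay above both early arrays without overlap. Probe 17471 differed from them: its values were 0.00, -0.08, -0.12, 0.03 and -0.01, so it stayed close to the median of the array at every time.

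The 5 concordant probes averaged 0.10 ± 0.06 units at 0 h (SD over 5 probes of 1 array, here and in what follows), 0.31 ± 0.05, 0.81 ± 0.09, 0.63 ± 0.17 and 0.83 ± 0.13 at 0.5, 2, 7 and 21 h. Their change from 0 h was 0.21 ± 0.09, 0.71 ± 0.07, 0.53 ± 0.13 and 0.73 ± 0.10 units at 0.5, 2, 7 and 21 h. These 5 were set apart after their values were seen, so their small SDs and shared signs are not separate evidence. The largest step was from 0.5 to 2 h, 0.49 ± 0.10 units, and it was positive in 5 of 5 probes. Over all 6 probes that step was 0.41 ± 0.23 units (SD over 6 probes), and it was positive in 5 of 6. From 2 to 7 h the difference was below 0 in all 5 probes (-0.33 to -0.04 units), and from 7 to 21 h above 0 in all 5 (0.09 to 0.30 units). Both of those steps were within 2 SDs of the disagreement between probes of other genes, and the 21 h and 2 h values differed by 0.03 ± 0.09 units. The order of the levels was 21, 2, 7, 0.5 and 0 h. Arrays next to each other in time did not differ beyond 2 SDs on average (the step from 0.5 to 2 h did so in 1 of 5 probes). The 21 h level lay 0.73 units above that at 0 h, past 2 SDs. It lay 0.52 units above that at 0.5 h, within 2 SDs (0.654). Counted from 0 h, 1 of the 6 probes passed 2 SDs at 2 h, 4 at 7 h and 5 at 21 h, and none at 0.5 h.

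With all 6 probes averaged, the change of Hif1a was 0.16, 0.57, 0.45 and 0.61 units at 0.5, 2, 7 and 21 h, of which the last passed 2 SDs. Of 8692 genes, 1.83% had a change at 21 h at least as large, and 3.36% at 7 h. Leaving out probe 17471 was chosen after its values were seen; without it the change at 7 h, 0.53 units, passed 2 SDs as well. That call at 7 h was lost without centring (0.45 units), with cyclic loess (0.46) and with the wider or the narrower running median removed (0.35 and 0.36), each against 2 SDs of the values so scaled. It was also lost with the 0.5 h array as baseline (0.32, 2 SDs 0.679) or both early arrays averaged (0.43, 2 SDs 0.513). The 6-probe call at 21 h was lost with the 0.5 h array as baseline (0.45, 2 SDs 0.654). Among the 214 genes with 5 or more probes, the SD over the probes of a gene had a median of 0.24 units at 2 h and 0.19 at 21 h. The 6 Hif1a probes had an SD of 0.34 and 0.31 at these times, and 161 and 181 of the 214 genes had a smaller one. No other gene of the 214 had a larger mean change at 21 h, and 5 had one at 2 h. The 10 macrophage genes had a median level of 0.05, 0.11, 0.33, 0.63 and 0.47 units in order of time, highest at 7 h. The median of their changes from 0 h was -0.04, 0.10, 0.09 and 0.28 units, with 0, 1, 4 and 3 of 10 called higher and 1 called lower, at 0.5 h. Of all genes 4.3, 4.84, 3.11 and 4.04% were called higher in order of time, and 0.357% lower at 0.5 h. The part of the macrophage genes in the Hif1a result was not tested. In RNA of whole cultures more cells of a type and more RNA per cell cannot be told apart.

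The 5 concordant Hif1a probes are numbered 8348 to 8638, a stretch of the array in which most probes were above their 0 h value. The other 256 probes between them had median changes of 0.17, 0.40, 0.20 and 0.32 units at 0.5, 2, 7 and 21 h, against 0.01, 0.03, 0.00 and 0.01 for all genes. At 0.5 h the lowest of the 5 Hif1a probes was equalled or passed by 59.8% of these neighbours, so Hif1a did not stand out there at that time. The share was 35.5% at 2 h, 16.8% at 7 h and 12.9% at 21 h, next to 8.14%, 6.61% and 3.03% of the probes of the whole array. Of the other genes with 3 or more probes in the stretch, some were close to Hif1a and some were not. At 21 h the chemokine gene Ccl6 (5 probes) had 0.58 ± 0.23 units and Cmc1, a mitochondrial assembly factor gene (7 probes), 0.52 ± 0.32, while Mtch2 (3 probes) had 0.18 ± 0.05 and the ribosomal gene Rps27l (4 probes) 0.17 ± 0.14. Elob, which encodes elongin B of the VHL ligase that removes HIF-1 alpha, had 0.35 ± 0.18 over 3 probes. The mean of the 5 Hif1a probes was above each of these genes at 21 h, but not at the earlier times. At 2 h it was under those of Ccl6 (0.86 ± 0.38) and Cmc1 (0.88 ± 0.30), and at 7 h under that of Ccl6 (0.78 ± 0.32). At 0.5 h Ccl6 (0.45 ± 0.19), Rps27l (0.33 ± 0.05) and Elob (0.25 ± 0.05) were above Hif1a (0.21 ± 0.09). After subtraction of a running median over neighbouring probe numbers, the 5-probe change was 0.09, 0.43, 0.35 and 0.47 units at 0.5, 2, 7 and 21 h. The change of all 6 probes at 21 h was then 0.39 units, and 0.35 with a narrower running median, both under 2 SDs of the values so treated, so the call of Hif1a by its 6-probe mean was lost. With the narrower one the 5-probe change at 21 h was 0.430 units, next to a threshold of 0.429. Probe 17471, which lay elsewhere, had neighbours with medians from -0.06 to 0.06 units.

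**Figure D2:**
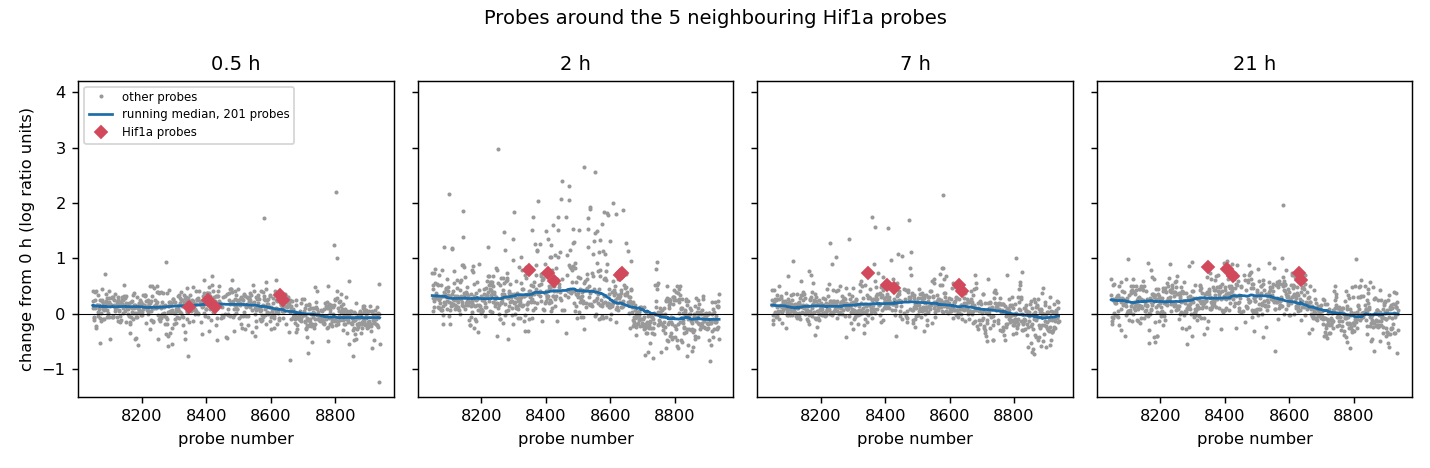
Change from 0 h (vertical axis, log ratio units) of each probe against its number on the array (horizontal axis), 1 panel per time. Red diamonds are the 5 Hif1a probes, grey points the other probes and the blue line their running median, which lies above 0 around the Hif1a probes and drops beyond them; at 0.5 h the diamonds lie among the grey points, and at 21 h near their upper edge.

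Slc2a1, the glucose transporter gene, had 1 probe and a steady order of values over time. Its centred log ratio was -0.07, 0.00, 0.13, 0.35 and 0.40 units at 0, 0.5, 2, 7 and 21 h. Each array was above the one before it, but every single step, 0.05 to 0.22 units, was within 2 SDs of the probe disagreement, so neighbouring times did not differ beyond that spread. The change from 0 h was 0.07, 0.20, 0.43 and 0.47 units at 0.5, 2, 7 and 21 h. The value at 21 h, 0.472 units, lay just past 2 SDs (0.467), and that at 7 h, 0.425, just short of them (0.462). Without centring the 21 h change was 0.41 units (2 SDs, 0.467), with cyclic loess 0.44 (0.467) and with quantile normalization 0.51 (0.549), so that this call was lost under these scalings. It was also lost with the 0.5 h array as baseline (0.40) or both early arrays averaged (0.44), and when every probe with a value on the 0 and 21 h arrays was used (0.470 units, 2 SDs 0.482). The 192 neighbouring probes had a median change of 0.03 units at 21 h, and 10 of them were at or above Slc2a1.

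Pfkp, the phosphofructokinase gene, was highest at 2 h by both probes, and the probes disagreed at 0.5 and 21 h. Probe 4244 had centred log ratios of 0.31, 2.02, 2.24, 0.36 and -0.16 at 0, 0.5, 2, 7 and 21 h. Probe 8108 had -0.10, 0.20, 1.09, 0.08 and 0.31. At 2 h both probes were above all of their values at 0, 7 and 21 h. Their changes from 0 h were 1.93 and 1.19 units at 2 h, both past 2 SDs. At 0.5 h the changes were 1.71 and 0.29, and only probe 4244 passed 2 SDs, so the early level of Pfkp differed between probes by more than the spread. From 2 to 7 h the differences were -1.87 and -1.01 units, both past 2 SDs of that step. At 21 h they had opposite signs, -0.46 and 0.40 units, and neither was called. Probe 4244, at -0.464 units, was just short of the lower threshold (2 SDs, 0.467). It passed 2 SDs without centring (-0.52, 2 SDs 0.467), with quantile normalization (-0.60, 0.549) and with cyclic loess (-0.70, 0.467). With the wider or the narrower running median removed it did not (-0.36 and -0.34). The mean change of both probes was 1.003, 1.56, 0.12 and -0.03 units in order of time. Of 8692 genes, 0.863% had a mean change at 2 h at least as large.

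Neighbouring probes did not share the Pfkp change in the case of probe 4244, whose 190 neighbours had medians of 0.01 units at 0.5 h and -0.02 at 2 h. Of these, 3 were at or above it at 0.5 h and 0 at 2 h. Probe 8108 had neighbours with a median of 0.27 units at 2 h, 7 of 189 at or above it. The 0.5 and 2 h arrays had the widest values of the series, with SDs of 0.43 and 0.53 units over all probes against 0.32 to 0.33 on the others, and their part in the Pfkp result was not tested. With quantile normalization the mean change of Pfkp was 0.67 units at 0.5 h and 0.95 at 2 h, and with cyclic loess 0.97 at 2 h.

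Aldoa, the aldolase gene, was within 2 SDs of its 0 h value at every time by all 3 probes. Probe 511 had centred log ratios of -0.16, -0.14, 0.04, 0.10 and 0.04 at 0, 0.5, 2, 7 and 21 h. Probe 13499 had -0.27, -0.12, -0.19, 0.10 and 0.10, and probe 14781 had 0.07, 0.14, -0.04, 0.13 and 0.25. The 7 and 21 h values were above the 0 h value in 3 of 3 probes. The mean change was 0.08 ± 0.07, 0.06 ± 0.16, 0.23 ± 0.16 and 0.25 ± 0.11 units at 0.5, 2, 7 and 21 h (SD over 3 probes). At 7 h 13.8% of the genes, and at 21 h 15.7%, had a change at least as large. From 7 to 21 h the 3 probes differed by 0.02 ± 0.09 units, a difference within the spread. The largest single change was that of probe 13499 at 7 h, 0.37 units, which 9 of its 192 neighbouring probes equalled or passed.

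**Figure D3:**
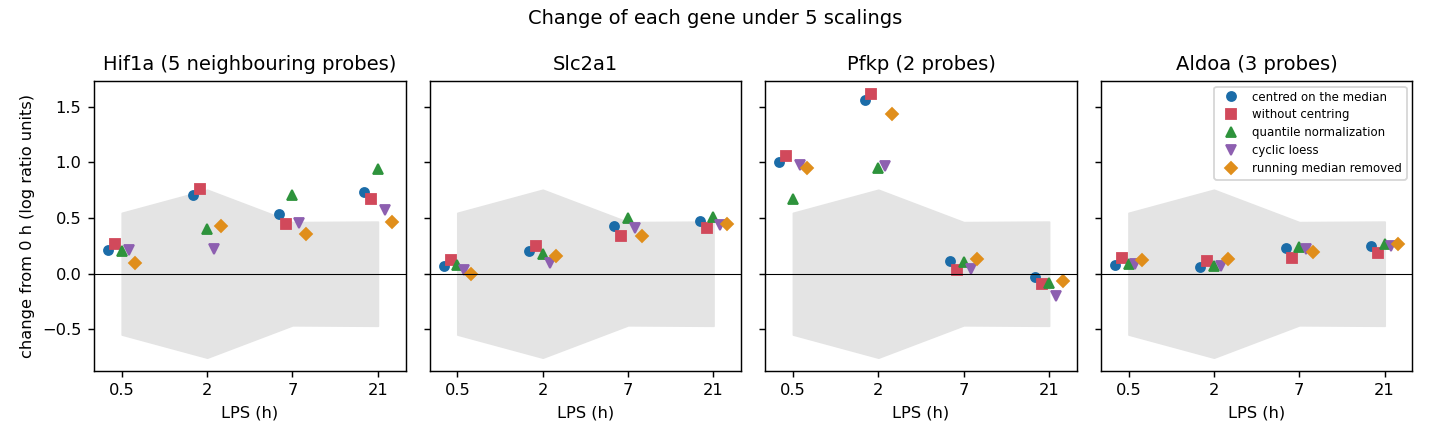
Change from 0 h (vertical axis, log ratio units) of each gene at 4 times (horizontal axis, h of LPS; Hif1a from the 5 concordant probes) with the values centred, as deposited, quantile normalized, cyclic loess normalized or freed of the running median; the grey band is 2 probe SDs of the centred values. Hif1a at 2 h spans 0.22 to 0.76 units and Pfkp at 2 h 0.95 to 1.61, while Aldoa stays inside the band in each.

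The size of the Hif1a change depended on the scaling most at 2 h. The 5-probe change ran from 0.22 units with cyclic loess to 0.76 without centring at 2 h, from 0.35 to 0.71 at 7 h and from 0.43 to 0.94 at 21 h, and it was positive in every scaling tried at these times. These 5 probes were chosen after their values were seen. The change of all 6 probes ran from 0.17 to 0.62 units at 2 h, 0.30 to 0.60 at 7 h and 0.35 to 0.78 at 21 h. The change of Slc2a1 ran from 0.34 to 0.50 units at 7 h and from 0.41 to 0.52 at 21 h. For Aldoa it ran from 0.14 to 0.24 at 7 h and from 0.19 to 0.27 at 21 h.

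The rest of the pathway was read from lists of genes, with the probes of a gene averaged. Among all 8692 genes 4.3%, 4.84%, 3.11% and 4.04% were called higher at 0.5, 2, 7 and 21 h, and 0.357%, 0.23%, 3.35% and 2.25% lower. Of the genes called, 92.3, 95.5, 48.1 and 64.2% were higher in order of time. That split was 95.4, 96.6, 25.6 and 42.7% without centring, 70.1, 73.7, 40.4 and 47.0% with quantile normalization, 92.5, 73.6, 39.4 and 42.1% with cyclic loess, and 90.6, 91.7, 64.4 and 61.9% with the running median removed. Of 26 glycolytic enzyme genes listed, 18 were measured, and Pfkp was the 1 called, at 0.5 and 2 h. At 0.5 h only 1 of its 2 probes passed 2 SDs (1.71 and 0.29 units). None of the 18 genes was called at 7 or 21 h. The median change of the 18 was 0.01, 0.03, 0.08 and 0.12 units at 0.5, 2, 7 and 21 h, against 0.01, 0.03, 0.00 and 0.01 for all genes. The 2 other phosphofructokinase genes did not share the 2 h value of Pfkp: Pfkl was at 0.08 units and Pfkm at -0.29. Pgk1, which encodes phosphoglycerate kinase, was at 0.65 units at 2 h on 1 probe, and Ldhc, the testis lactate dehydrogenase gene, at 0.46 at 0.5 h, both within 2 SDs. At 21 h Pgam1 was at 0.38 units, Tpi1 at 0.32 over 5 probes, Aldoc at 0.30, Eno2 at 0.25, Pkm at -0.03, Gapdh at -0.07 over 11 probes and Pfkl at -0.42, all within 2 SDs. Hk2, the inducible hexokinase, was at 0.20 units at 7 h, and Ldha, Eno1 and Hk1 were not among the measured genes.

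The 4 measured regulators of glycolysis, Pfkfb3, Tigar, Bpgm and Adpgk, were all within 2 SDs at each time, and their median change ran from 0.08 to 0.19 units. Tigar, which lowers the activator of phosphofructokinase, was at 0.62 units at 2 h, and Pfkfb3, which makes that activator, at 0.27 units at 7 h. Of 11 measured genes of glucose and lactate transport, Slc2a1 was the only one called higher at 21 h, and the median change stayed between -0.03 and 0.00 units. Slc16a7, a lactate and pyruvate transporter gene, was called higher at 2 h, with changes of 1.97 units there, -0.08 at 7 h and 0.42 at 21 h. Slc2a5, the fructose transporter gene, was called lower at 7 and 21 h, at -0.55 and -0.53 units. Slc2a12 was at -0.45 and -0.42 and Slc2a3, the other glucose transporter of white blood cells, at -0.18 and -0.14 units, within 2 SDs.

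Of 15 measured HIF subunits and regulators, 1 was called higher at each of 2, 7 and 21 h and none lower. At 2 h this was Hif1an, the asparagine hydroxylase that blocks HIF-1 alpha activity, with 1.52 units, and it was at -0.18 units at 7 h and -0.01 at 21 h on 1 probe. At 7 h it was Os9 (0.58 units), and at 21 h Hif1a itself, and the median of the list ran from 0.03 to 0.07 units. The sister subunit Epas1 was at 0.16 units at 21 h, the prolyl hydroxylases Egln1 and Egln3 at -0.07 and -0.20, and Vhl at -0.02, all within 2 SDs. Of 21 measured HIF target genes outside glycolysis, 2 were called higher at 7 h and 2 at 21 h, and none lower. Hmox1, haem oxygenase, was at 0.52 units at 7 h and 1.01 at 21 h, Bhlhe40 at 0.51 at 7 h and Lox, a collagen cross-linking enzyme gene, at 0.53 at 21 h. Vegfa, the angiogenic growth factor gene, was at 0.11 units at 21 h over 3 probes, Bnip3 at 0.42 and Car9 at -0.22. Stc2 was at -0.63 units at 2 h, within 2 SDs, with its probes at -0.13 and -1.13. The median of the 21 was 0.04 units at 7 h and 0.11 at 21 h.

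**Figure D4:**
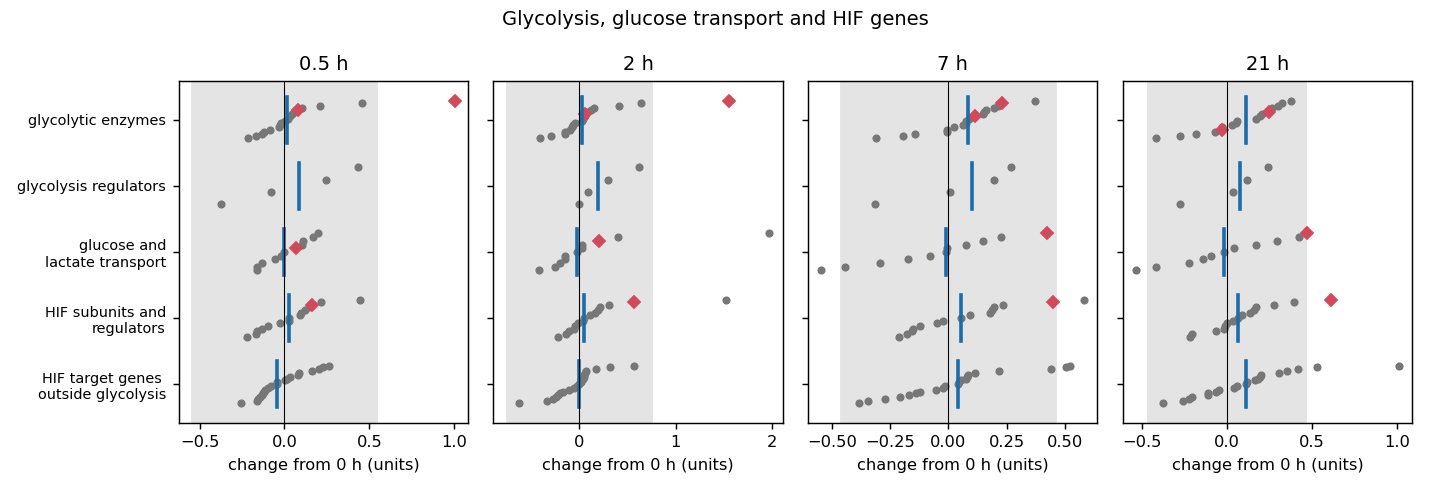
Change from 0 h (horizontal axis, log ratio units, scaled for each panel) of every measured gene of 5 lists at 4 times; red diamonds are the genes Hif1a, Slc2a1, Pfkp and Aldoa, grey points the other genes, blue bars list medians and the grey band 2 probe SDs. The mean of the 2 Pfkp probes, 1.003 and 1.56 units, stands outside the other glycolytic enzymes at 0.5 and 2 h. At 0.5 h only 1 of these 2 probes passed 2 SDs. The list medians lie between -0.04 and 0.19 units.

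Likeness over time was measured as the root mean square difference of the 4 changes from 0 h between a gene and each of the others. The genes closest to Hif1a (6 probes averaged) were Rnf135 (0.04 units), Hspb3 (0.05), Cdk3, Dennd2d and Myh3 (0.07 each), all on 1 probe, and among the pathway genes Lox (0.12), Slc37a4 (0.17) and Slc2a1 (0.20), which ranked 307 among all genes. From the 5 concordant Hif1a probes the closest gene was Plut (0.05). The closest pathway genes were then Lox (0.20), Slc37a4 and Pgm1 (0.28 each), and Slc2a1 (0.30) ranked 455 among all genes. Closest to Slc2a1 were 2010110K18Rik (0.02), 2010003K11Rik (0.04), Ndel1 (0.04), Adh1 (0.05) and Apoc2 (0.05), and among pathway genes Pdk3 (0.09), a kinase that holds back pyruvate dehydrogenase, Idh3g (0.13) and Slc37a4 (0.14). For Pfkp the nearest genes were Zfp445 (0.22), Lgals8 (0.24), Itih5, Ythdc1 and Dnajc24 (0.25 each), and among pathway genes Pck1 (0.38), Hif1an (0.46) and Slc16a7 (0.53). Closest to Aldoa were Ndufb3 (0.01), Slc25a12 (0.02), Txnrd2 (0.02), Arrdc4 (0.02) and Asns (0.03), all averaged over 2 to 4 probes, and among pathway genes Sdhb (0.04), Pygb (0.05) and Rbx1 (0.05). The differences tend to be larger for a gene with larger changes, such as Pfkp, and its nearest genes lay about 1 probe SD or less from it. The probe of Dennd2d (8441) and 1 of the 2 of 2010003K11Rik (8587) lie between the Hif1a probes in the stretch described above, and that of 2010110K18Rik (8238) lies shortly before it. A Dnajc24 probe (8344) lies just before it too. The probes around Pfkp probe 8108 were also above 0, with medians of 0.27 units at 2 h and 0.20 at 21 h. Pck1 (8011) and a Txnrd2 probe (8121) lie among them. All of the likeness differences are over 4 values from 5 arrays that share the 0 h array.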

How the data were processed

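Total RNA of 5 macrophage cultures was measured on 5 two-colour arrays, 1 per time. Per the labels' protocols, total RNA came from a silica column kit and cDNA was labelled indirectly through amino-allyl groups, with Cy3 as the one dye given. For each probe the authors deposited a log ratio that can take either sign, with background correction, normalization, logarithm base and direction not given in the sources used here, and signal over background was not used here. Column medians ran from -0.01 to 0.13 units.

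Of 19828 probes, 14759 had 1 gene in the array's annotation, 170 several and 4899 none; 14628 of the gene IDs were in a RefSeq table, and no member's symbol changed. Probes with a value on all 5 arrays (18391) were kept, each array was centred on their median, and the change is the value at a time minus that at 0 h. The spread is the SD of the difference of a gene's first 2 probes, divided by the square root of 2. No test was possible with 1 array per time, so 2 SDs served as a threshold. Named genes were all member probes, up to 4 genes of each list with the largest change, those past 2 SDs, and the nearest genes by likeness; others were chosen after their values were seen. Running medians spanned 201 probes, or 41 in an alternative added after the data were seen. Members and lists were chosen with earlier results of these data known. The counting was tested on simulated data with changes well past the thresholds and independent noise. That did not test calls near a threshold or shifts shared by neighbouring probes. Python 3.11.15, numpy 2.4.6, pandas 2.3.3, R 4.3.3 and limma 3.58.1 (cyclic loess) were used.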

Additional observations from a re-analysis of the deposited data

How the results depend on the processing

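No paired analysis was possible because each time had 1 array. Of 128 values of the 4 genes under alternatives, 115 moved by less than 1 probe SD, 13 moved by more and 0 called values changed sign; of 360 values of single probes or of the 5 Hif1a probes, 320 moved by less. The causes of the moves were not tested.

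With cyclic loess Hif1a at 2 h was 0.17 units and Pfkp 0.97, and with quantile normalization Pfkp was 0.67 at 0.5 h and 0.95 at 2 h. With the 41-probe running median removed Hif1a was 0.35 at 21 h, and with the wider one 0.39, both under 2 SDs. From the 0.5 h array it was 0.45 at 21 h, also under 2 SDs (0.654). With the 0.5 h array as baseline Pfkp was 0.55 at 2 h, -0.89 at 7 h and -1.03 at 21 h. Its 2 h call was then lost, and it was called lower at 7 h (2 SDs 0.679) and 21 h (0.654). By probe the 7 and 21 h values were -1.66 and -2.18 (4244) and -0.12 and 0.11 (8108). With the mean of the 0 and 0.5 h arrays Pfkp was 1.06, -0.39 and -0.53 at 2, 7 and 21 h, the last called lower (2 SDs 0.498). From the Pfkp probe with the smaller early change alone, it was 0.29 at 0.5 h and 0.40 at 21 h.

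Of 108 measured pathway genes, 2, 6, 3 and 5 (1.85, 5.56, 2.78 and 4.63%) were called higher at 0.5, 2, 7 and 21 h and 0, 0, 2 and 2 lower. Of all genes 4.30, 4.84, 3.11 and 4.04% were called higher, so the shares at 2, 7 and 21 h lay near those of all genes. Percentages that follow are of all genes under the same setting, each with 2 SDs of its own values. Without centring 1 was higher at 7 h (2.00%), 3 at 21 h (2.74%), and 4 lower at both (5.83 and 3.67%). With quantile normalization 2 were higher at 21 h (2.93%), 1 lower at 0.5 h (1.40%) and 2 at 2 h (1.2%), and with cyclic loess 2 lower at 2 h (1.28%). More were higher at 2 h under these scalings: 7 with quantile normalization (6.48% of the 108, against 3.35% of all genes). With cyclic loess 8 were higher at 2 h (7.41% against 3.55%), and 8 with the narrower running median removed (7.41% against 4.25%). With the wider or the narrower running median removed 6 were higher (3.35 and 3.34%) and 0 lower (1.85 and 1.93%) at 7 h. With the 0.5 h baseline 0 were higher (0.805%) and 4 lower (5.43%) at 7 h and 1 higher at 21 h (0.840%), and with the mean baseline 1 was higher at 7 h (1.62%) and 2 at 21 h (1.98%). Among genes with more than 1 probe, 49 of them pathway genes, 1, 1, 0 and 2 were higher in order of time (1.85, 2.83, 1.55 and 2.18%). These were 2.04, 2.04, 0 and 4.08% of the 49. Of the 49, 0 were lower at 7 and 21 h (0.626 and 0.494%). Past 1 unit 0 were higher at 7 h (0.276%), 1 at 21 h (0.253%) and 0 lower at both (0.127 and 0.0575%). Spot brightness was not used here, and no dim spot was removed.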

Other observations

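Genes beside glycolysis were called on few probes. Of 26 measured genes of pyruvate entry and the TCA cycle, Aco1, the cytosolic aconitase and iron regulatory protein, was the 1 called, with 2.02, 2.43, -0.60 and -0.49 units at 0.5, 2, 7 and 21 h on 1 probe. It was called higher at 0.5 and 2 h and lower at 7 and 21 h. Pfkp probe 4244 was called higher at the same early times. At 7 h it was at 0.06 units, and at 21 h at -0.464, just short of the threshold (0.467). The next in size were Pdk2 (-0.41 units at 2 h), Idh3g (0.40 at 21 h) and Pdk3 (0.38 at 21 h), within 2 SDs. In the list of gluconeogenesis and glycogen (13 measured), Pck1, the gluconeogenic carboxykinase (1.31 units), and Gbe1, the glycogen branching enzyme (1.27), were called higher at 2 h and were at 0.11 and 0.18 units at 7 h. Pgm1 was at 0.55 units at 2 h, within 2 SDs. Ugp2 was called at 21 h at 0.48 units, but its 2 probes were at 0.998 and -0.03. The 3 measured genes of the pentose phosphate pathway were within 2 SDs at each time: at 2 h Taldo1 was at -0.66, Rpe at 0.38 and Tkt at 0.00 units. In Rpe 4 probes ran from -0.28 to 1.68 units at 0.5 h.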
